A study of Mus musculus with 12 samples.

Results

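The genes described here are those that encode the mitochondrial respiratory chain and ATP synthase, from both the mitochondrial and the nuclear genome. They were chosen by symbol, as rows starting with mt-Nd, mt-Co, mt-Cytb or mt-Atp, or with Ndufa, Ndufb, Ndufc, Ndufs, Ndufv, Sdha, Sdhb, Sdhc, Sdhd, Uqcr, Cox4i, Cox5, Cox6, Cox7, Cox8 or Atp5. Pseudogene symbols ending in -ps were left out, and a mean of at least 1 TPM over 12 libraries was required. TPM is an abundance that corrects the reads of a gene for its length and for the size of its library. Of 26748 gene rows, 111 matched, 4 of these were pseudogene symbols and 2 lay below the mean, which left 105 members. Of the members 13 are encoded in the mitochondrial genome and 92 in the nuclear genome. The lowest member was Sdhaf3, with a mean of 1.12 TPM, and the nearest gene below the limit was Cox6b2, with 0.573 TPM.

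RNA was taken from hepatocytes of male C57BL/6 mice in 4 groups of 3 libraries. Floxed mice carry an intact Rxra gene, which encodes the nuclear receptor RXRα, and were studied without drug and with bexarotene, an RXR agonist, at 100 mg/kg per day for 5 days. Mice with a hepatic knockout of Rxra were studied in the same 2 ways. The sources used here do not state the promoter that drove the deletion or what the control mice received. Libraries are named by the number in their column, which differs from the number in the sample title, so columns were assigned to groups only.

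The respiratory chain passes electrons from NADH through complex I, or from succinate through complex II, to coenzyme Q, then through complex III and cytochrome c to complex IV, which reduces oxygen. Complexes I, III and IV pump protons, and complex V, the ATP synthase, uses the gradient to make ATP. The mitochondrial genome encodes core subunits of complexes I, III, IV and V, and the nuclear genome encodes all other subunits, including the whole of complex II. The mitochondrial messengers are cut from long transcripts of the circular genome. All but mt-Nd6 come from the same strand. Hepatocytes are rich in mitochondria and use the chain to burn fatty acids.

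Some libraries of a group were nearly identical and were counted as 1 sample. Floxed controls 1 and 3, and treated knockout libraries 1, 2 and 3, differed beyond counting noise by a spread of 0.0345 to 0.0621 on the log2 scale, against 0.150 to 0.513 in the other 8 pairs. The 12 libraries thus became 9 samples. The floxed controls count as n = 2, the treated floxed group and the knockout controls as n = 3 each, and the treated knockout as n = 1, without an SD. The files hold no counts, so depth is unknown. Between 9713 and 10470 genes per library reached 1 TPM. Rxra stood at 79.5 to 86.1 TPM in floxed libraries and at 26.1 to 33.1 TPM in knockout libraries, with no overlap, and was called lower in knockout controls (log2 difference -1.42 ± 0.13, SE, adjusted p = 8.87e-04, limma). All 13 hepatocyte markers were present, and together they reached 65365 to 112450 TPM. Macrophage markers summed to 28.8 to 99.2 TPM in floxed controls, 20.5 to 73.7 in treated floxed libraries, 16.6 to 38.3 in knockout controls and 73.1 to 83.2 in treated knockout libraries, with Marco under 1 TPM in every library. Of 12 endothelial markers Gpr182 was under 1 TPM throughout and the sum was 14.1 to 30.3 TPM, and of 6 cholangiocyte markers Krt19, Krt7, Epcam and Cftr were under 1 TPM in every library. Fewer cells of a type and less RNA per cell cannot be told apart in these bulk samples.

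Several mitochondrially encoded genes have a near-identical copy in the nuclear genome that is a row of its own in the table. Their sequences are shown because they decide what a row's TPM can mean. The copies lie side by side on the minus strand of chromosome 1 (GRCm38, annotated as unprocessed pseudogenes in GENCODE M21). The first 45 bases of mt-Co3, the third core subunit of complex IV (chrM:8607-8651, plus strand), are found unchanged in the copy Gm28437, which matches mt-Co3 at 100% over 783 of 784 bases. The same holds for the first 45 bases of mt-Co2 (chrM:7013-7057), found in Gm28661, which matches at 100% over 681 of 684 bases. The first 23 bases that align between mt-Nd3, a complex I subunit (chrM:9459-9481), and its copy Gm28438 (chr1:24613097-24613119, minus strand) hold the only mismatch of 345 aligned bases, at position 3 from the 5′ end, given in capitals. All are from GENCODE M21 transcripts.
mt-Co3: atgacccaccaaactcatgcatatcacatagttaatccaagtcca
mt-Co2: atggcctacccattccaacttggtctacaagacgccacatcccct
mt-Nd3: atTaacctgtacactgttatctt
Gm28438: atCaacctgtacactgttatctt

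The copies carried more TPM than most of the genes they resemble. Gm28661 had a mean of 22702 TPM over 12 libraries against 575 TPM for mt-Co2, and it held 96.6% to 98.5% of their sum in each library. Gm28437 had 16943 TPM against 470.1 TPM for mt-Co3, Gm10925 had 12625 TPM against 1761 TPM for mt-Atp6, and Gm28438 had 13128 TPM against 2067 TPM for mt-Nd3. Gm10222 had 4813 TPM against 8096 TPM for mt-Nd4l. Gm29216, which aligns to only 483 of the 1545 bases of mt-Co1 and matches at 99.8%, had 4150 TPM against 23515 TPM. With so few differing bases, reads of a gene and its copy can hardly be assigned to either. The rows of mt-Co2, mt-Co3, mt-Atp6 and mt-Nd3 in particular are uncertain, and for knockout among controls each is given below also as a sum with its copy. The copy Gm28439 of mt-Nd4 was not analysed here. No copy of at least 95% identity over 100 bases was found among the transcripts for mt-Nd1, mt-Cytb, mt-Atp8 or mt-Nd6, and the copies of mt-Nd2 and mt-Nd5 were at or near 0 TPM.

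**Figure D1:**
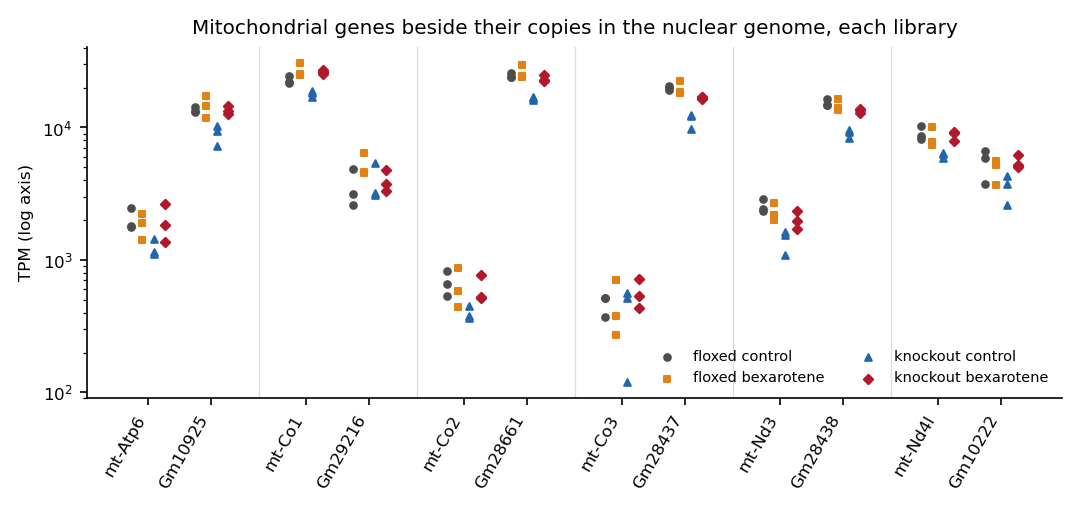
TPM (log axis) of 6 mitochondrially encoded genes, each beside its copy on chromosome 1, with 1 point per library, coloured by group. For mt-Atp6, mt-Co2, mt-Co3 and mt-Nd3 the copy is the higher row in all 12 libraries, and for mt-Co1 and mt-Nd4l the mitochondrial gene has the higher mean.

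A similar limit holds for mt-Atp8 and mt-Atp6, which encode the subunits 8 and a of the ATP synthase and overlap by 43 bases (chrM:7927-7969, plus strand). The overlap is shown in capitals with 15 bases on either side.
mt-Atp8 and mt-Atp6: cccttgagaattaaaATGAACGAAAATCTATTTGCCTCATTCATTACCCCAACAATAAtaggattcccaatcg
The annotated mt-Atp8 is only 204 bases long. It was the highest member, with a mean of 47158 TPM, while mt-Atp6, with 681 bases, had 1761 TPM. The ratio of the mt-Atp8 value to the mt-Atp6 value ran from 19.5 to 40.2 among libraries. Summed with its copy, mt-Atp6 reached a mean of 14387 TPM.

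The 13 mitochondrially encoded genes together took a lower share of the RNA in knockout controls than in any other group. Their summed TPM made up 12.9%, 12.1% and 13.2% of the total in floxed controls 1, 3 and 4, and 12.3%, 11.9% and 15.6% in treated floxed libraries 1, 3 and 4. It made up 7.55%, 9.51% and 9.20% in knockout controls 1, 2 and 5, and 12.6%, 13.4% and 12.4% in treated knockout libraries 1, 2 and 3. Every knockout control library lay below every library of the other groups, which overlapped among themselves. The group means were, in that order, 12.9% ± 0.482 (SD, n = 2), 13.3% ± 2.03 (n = 3), 8.75% ± 1.06 (n = 3) and 12.8% (n = 1). The share without mt-Atp8, the shortest gene, was 7.61% ± 0.415 in floxed controls and 5.26% ± 0.25 in knockout controls. Shares were described and not tested.

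The 92 nuclear genes, although more numerous, took a smaller share and were arranged otherwise. They made up 1.80%, 1.86% and 1.85% of the total in floxed controls 1, 3 and 4, and 2.27%, 2.35% and 2.05% in treated floxed libraries 1, 3 and 4. They made up 2.17%, 1.95% and 1.91% in knockout controls 1, 2 and 5, and 2.12%, 2.01% and 2.13% in treated knockout libraries. By this share of the total the floxed controls were thus the 3 lowest libraries, below all 9 others. A TPM is a share of a fixed total, so a larger mitochondrial share lowers the rest. Counted over the TPM that remains without mitochondrially encoded genes, the nuclear share averaged 2.11% ± 0.0211 (SD, n = 2) without drug and 2.57% ± 0.124 (n = 3) with it in floxed mice. In knockout mice it averaged 2.20% ± 0.126 (n = 3) without drug and 2.40% (n = 1) with it. By this measure knockout control 5, at 2.11%, lay below floxed controls 3 and 4, at 2.12% and 2.13%. The floxed controls and knockout controls thus overlapped. The chromosome 1 copies stayed in this remainder. They held 7.77% to 8.51% of the total in floxed controls and 5.07% to 5.54% in knockout controls, so the correction is partial. The ratio of mitochondrial to nuclear TPM was lowest in knockout controls, at 3.48 to 4.89, and stood at 5.06 to 7.63 in the other 9 libraries.

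**Figure D2:**
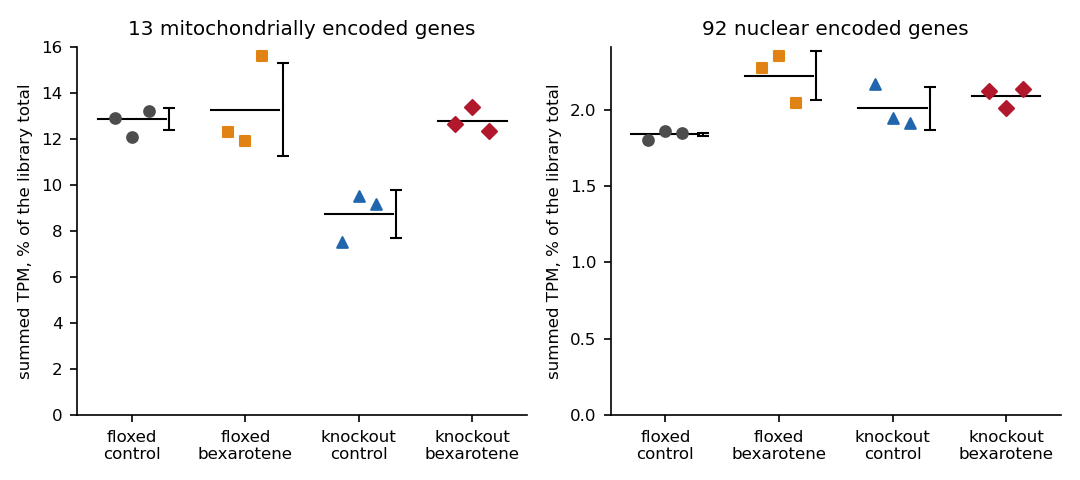
Summed TPM of the 13 mitochondrially encoded genes (left) and the 92 nuclear encoded genes (right) as percent of each library's total; points are libraries, lines are group means over samples and bars are SD where there are at least 2 samples. The knockout controls are lowest for the mitochondrial genes, at 7.55% to 9.51%, and the floxed controls are lowest for the nuclear genes, at 1.80% to 1.86%.

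Levels differed widely within each genome. Of the mitochondrial genes, taken by their own rows, mt-Atp8 was followed by mt-Co1, the catalytic core of complex IV, with a mean of 23515 TPM. Next came mt-Cytb, the central subunit of complex III, with 9822 TPM. The complex I genes mt-Nd1, mt-Nd4l, mt-Nd2 and mt-Nd4 stood between 6587 and 8198 TPM, and mt-Nd6 was lowest among the complex I genes with 825 TPM. Neighbours in this order, such as mt-Nd1 and mt-Nd2, overlapped in their library values. The order is uncertain for genes with a copy on chromosome 1. Summed with their copies, mt-Co2 had a mean of 23277 TPM, mt-Co3 17414 TPM and mt-Nd3 15195 TPM. The sums were 14387 TPM for mt-Atp6 and 12910 TPM for mt-Nd4l, and all of these lay above mt-Cytb. Of the nuclear genes, those of complex III (median of the means 404 TPM, 8 genes), complex V (376 TPM, 16 genes) and complex IV (297 TPM, 14 genes) were higher than those of complex II (179 TPM, 4 genes) and complex I (130 TPM, 37 genes). The 13 assembly factors, which help build the complexes without staying in them, had a median of 12.7 TPM and did not exceed 25.9 TPM. The highest nuclear members were Atp5b, the catalytic β subunit of the ATP synthase (898 TPM), Atp5g3, a gene of its membrane ring (741 TPM), and Cox4i1, the common form of subunit 4 of complex IV (726 TPM).

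**Figure D3:**
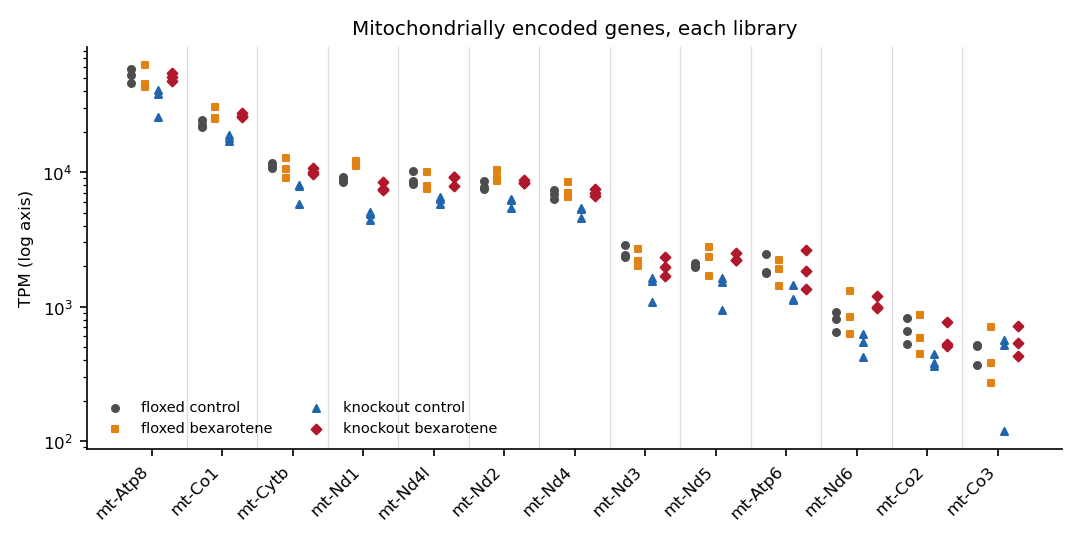
TPM (log axis) of the 13 mitochondrially encoded genes in order of their mean, with 1 point per library, coloured by group. By their own rows, without the copies, the genes run from mt-Atp8, at 47158 TPM on average, to mt-Co3, at 470.1 TPM. With its copy added mt-Co3 had a mean of 17414 TPM. The knockout controls lie low in most genes.

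Among controls, knockout of Rxra went with lower values of all 13 mitochondrially encoded genes, of which mt-Nd1 passed the test. mt-Nd1 encodes a membrane subunit of complex I near the site where coenzyme Q binds (chrM:2751-3707, plus strand, GRCm38). It stood at 8443, 8787 and 9159 TPM in floxed controls 1, 3 and 4, and at 5025, 4376 and 4901 TPM in knockout controls 1, 2 and 5. The groups did not overlap. The means were 8887 ± 385 TPM (SD, n = 2) and 4767 ± 345 TPM (n = 3), and the difference was -0.90 ± 0.12 in log2(TPM + 1), with its SE (limma, adjusted p = 0.00607 over 11018 tested genes). In that comparison 1.92% of all tested genes were called lower and 1.83% higher, so 1 lower member of 105 is no larger a share than the background. The call of mt-Nd1 depended on the settings. It was lost in 5 of 18 alternatives, whose adjusted p ran from 5.46e-05 to 0.136 over all 18, and among the 5 were the fits without floxed controls 1 and 3 (adjusted p = 0.0608) and without floxed control 4 (0.0861).

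The other 12 mitochondrially encoded genes had the same sign without passing the test. The median difference of the 13 was -0.62, against 0.00 for all tested genes, and the values ran from -0.90 to -0.36, all below 0, where 49.5% of all tested genes lay. The libraries of the groups did not overlap for 12 of the 13, all lower in the knockout, while 11.1% of all tested genes were lower without overlap. The exception was mt-Co3, which ranged from 119 to 562 TPM among knockout controls alone. Summed with its copy, mt-Co3 stood at 9869 to 12989 TPM in knockout controls and 19629 to 21137 TPM in floxed controls, without overlap. mt-Cytb stood at 10751, 11127 and 11653 TPM in floxed controls and at 5787, 8031 and 7828 TPM in knockout controls (log2 difference -0.66 ± 0.20, adjusted p = 0.126, limma). mt-Co1 stood at 22201, 21663 and 24556 TPM against 18066, 18967 and 17085 TPM (-0.36 ± 0.14, adjusted p = 0.243), the smallest difference of the 13. With the copies added, mt-Nd3 (-0.76 ± 0.14, adjusted p = 0.0248) and mt-Co3 (-0.80 ± 0.17, adjusted p = 0.0404) were called lower as well. For mt-Nd3 the sums were 18625, 17791 and 17285 TPM in floxed controls and 11110, 9471 and 10862 TPM in knockout controls, without overlap. The sums of mt-Co2 with its copy (-0.58 ± 0.13, adjusted p = 0.0516) and of mt-Atp6 with its copy (-0.65 ± 0.19, adjusted p = 0.121) were not called. Nor were those of mt-Nd4l (-0.59 ± 0.16, adjusted p = 0.101) and mt-Co1 (-0.28 ± 0.14, adjusted p = 0.340, limma). The difference of mt-Co1 was thus smaller with its copy than without. The summing was chosen after the data were seen. The mitochondrial ribosomal RNAs mt-Rnr1 (-0.52 ± 0.26, adjusted p = 0.379) and mt-Rnr2 (-0.77 ± 0.40, adjusted p = 0.382) also had lower values in all 3 knockout controls than in any floxed control.

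In the same comparison 0 of 10 tested macrophage markers lay above 0, with a median of -0.97, 1 of the 10 was lower without overlap and none was called. Neutrophil markers had a median of -0.51 over 3 tested genes and endothelial markers -0.03 over 10. Erythroid genes had -1.16 over 5, of which Alas2 was called higher and none was lower without overlap. Their sums were 213, 223 and 692 TPM in floxed controls 1, 3 and 4, against 214 to 414 TPM in knockout controls. Floxed control 4 also had the highest macrophage and neutrophil sums of the floxed controls, at 99.2 and 54.7 TPM. Of 13 hepatocyte markers, with a median of 0.08, Apoa1 and Ttr were called higher. The only tested cholangiocyte marker, Spp1, was called lower, at 0.31 to 0.64 TPM against 1.69 to 4.04 TPM (-1.39 ± 0.31, adjusted p = 0.0486, limma). The part of these RNAs in the mitochondrial values was not tested.

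The nuclear members leaned the other way in the same comparison, and none passed the test at an adjusted p under 0.05. Their median was 0.13, and 70 of 92 lay above 0, against 50.4% of all tested genes. With TPM scaled anew without the mitochondrially encoded genes, but with their chromosome 1 copies kept, the nuclear median was 0.0652. The libraries of the groups did not overlap for 29 higher and 3 lower nuclear members, where the share over all tested genes was 14.2% higher and 11.1% lower. At an unadjusted p under 0.05 there were 9 nuclear members, all higher, and 17.0% of all tested genes reached that level in either direction. Complex II had the highest median, 0.21 over 4 genes, followed by complex V with 0.18 over 16 and complex I with 0.18 over 37. The nearest to a call was Ndufab1, the mitochondrial acyl carrier protein, which is also a complex I subunit. It stood at 45.5, 37.5 and 47.5 TPM in floxed controls and at 71.5, 79.3 and 63.3 TPM in knockout controls (0.67 ± 0.18, adjusted p = 0.0912). This gene was chosen after its values were seen. Knockout control 1 stood apart. It was the highest of its 3 libraries for 57 of 92 nuclear members, and its own median over them was 0.26 above the floxed control mean, against 0.10 and 0.06 for knockout controls 2 and 5. It was also the lowest for the mitochondrial genes, with a median of -0.82 against -0.39 and -0.46. Without knockout control 1 the nuclear median was 0.0789 and the mitochondrial median -0.481.

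**Figure D4:**
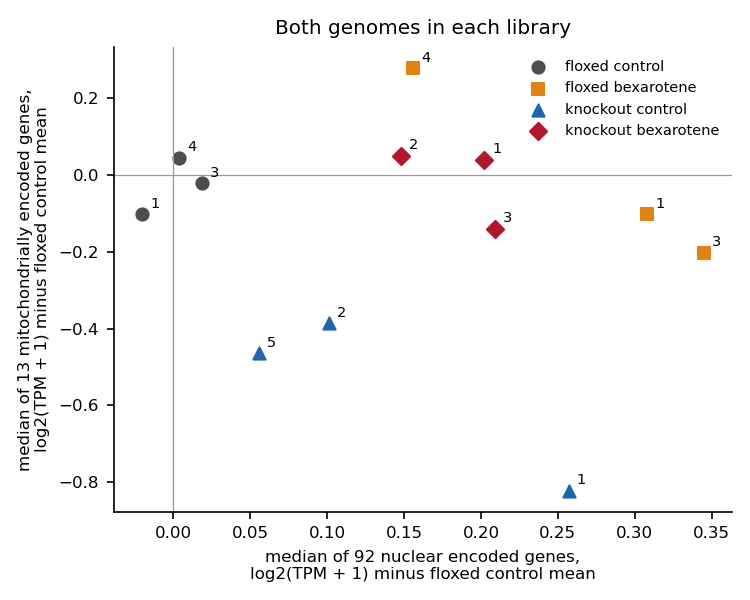
Median over the 13 mitochondrially encoded genes (vertical axis) against the median over the 92 nuclear genes (horizontal axis) in each library, both as log2(TPM + 1) minus the mean of the floxed control samples, with the library number beside each point. The knockout controls lie lowest, at -0.82 to -0.39 on the mitochondrial axis, and the treated floxed libraries 1 and 3 lie farthest right, at 0.31 and 0.34.

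With Rxra intact, bexarotene went with slightly higher values of most nuclear members, and none passed the test. Of the 92 nuclear members 87 lay above 0, with a median log2 difference of 0.27, while the median of all tested genes was 0.06 and 58.6% of them lay above 0. With quantile normalization the nuclear median was 0.117. In this comparison 1.84% of tested genes were called higher and 0.281% lower, and by the same rule no member was called in either direction. At an unadjusted p under 0.05 there were 27 nuclear members, all higher, and the share among all tested genes, in both directions, was 15.4%. For 64 nuclear members every treated floxed library exceeded every floxed control, against 25.7% of tested genes, and for none was the order reversed, against 9.59%. The medians by complex were close to each other, with 0.28 for complexes I and II, 0.27 for complex III, 0.26 for complex IV and 0.32 for complex V, and lower at 0.15 for the assembly factors. Other genes of like abundance had smaller medians. For example, 462 other genes with a mean of 100 to 300 TPM had a median of 0.131 and the 40 nuclear members in that range had 0.289. The floxed controls are shared with the comparison of genotypes above, so the higher nuclear values in both are not separate observations.

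Ndufab1 and Cox6b1 were the members nearest to a call, and their differences were larger than the nuclear median. Ndufab1 stood at 45.5, 37.5 and 47.5 TPM in floxed controls and at 74.2, 92.3 and 63.1 TPM in treated floxed libraries (0.75 ± 0.18, adjusted p = 0.0822, limma). Cox6b1, a small subunit on the outer side of complex IV, stood at 406, 441 and 390 TPM and at 576, 610 and 584 TPM (0.54 ± 0.13, adjusted p = 0.0927). The groups did not overlap for either gene. Sdhb, the iron-sulfur subunit of complex II, stood at 173, 186 and 181 TPM and at 260, 283 and 239 TPM (0.53 ± 0.16, adjusted p = 0.158). Sdha, the flavoprotein that oxidizes succinate, stood at 176, 176 and 174 TPM and at 220, 208 and 210 TPM (0.28 ± 0.11, adjusted p = 0.297). All treated values of these 4 genes lay above all control values. Treating the 12 libraries as separate samples, 16 nuclear members and mt-Nd1 were called higher, but that fit counts the near-identical floxed controls 1 and 3 as independent.

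Smaller differences were found for the following abundant nuclear members, from 0.21 to 0.36. Atp5b stood at 747, 783 and 817 TPM in floxed controls and at 1047, 1079 and 927 TPM under the drug (0.36 ± 0.15, adjusted p = 0.293, limma). Atp5g3 went with 0.36 ± 0.13 (adjusted p = 0.244), and Uqcrh, the hinge subunit of complex III that holds cytochrome c1, with 0.34 ± 0.12 (adjusted p = 0.208). Uqcr11, a small subunit of complex III, had 0.21 ± 0.14 (adjusted p = 0.536), and Cox4i1 had 0.27 ± 0.18 (adjusted p = 0.539). In complex I, Ndufb9, an accessory subunit of its membrane arm, had 0.28 ± 0.13 (adjusted p = 0.332). Ndufb4c, a near-copy of Ndufb4 that was the highest nuclear complex I row at 373 TPM, had 0.26 ± 0.13 (adjusted p = 0.382). It matches Ndufb4 (30.6 TPM) at 100% over 390 bases, so these rows are uncertain. The same holds for Atp5l, a subunit of the ATP synthase, at 462 TPM. Its copy Gm10221 had 348 TPM and matches at 100% over 309 bases.

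The mitochondrial genes did not share this lean in floxed mice. Their median was -0.08, 6 of 13 lay above 0 and 7 below, where 41.3% of all tested genes lay, and none was called. mt-Nd1 was the largest, at 11070, 12026 and 11246 TPM in treated floxed libraries, each above every floxed control (0.37 ± 0.12, adjusted p = 0.192, limma). mt-Co1 stood at 24774, 25259 and 30688 TPM (0.21 ± 0.14, adjusted p = 0.556), and mt-Cytb at 10527, 9003 and 12827 TPM (-0.08 ± 0.20, adjusted p = 0.891). The sign of the mitochondrial median was not stable, since it was 0.177 after removal of a length and GC trend, 0.049 with quantile normalization and 0.0579 with the copies summed. Treated floxed library 4 stood apart from the other treated floxed libraries, with a mitochondrial median of 0.28 and a nuclear median of 0.16, against -0.10 and 0.31 in library 1 and -0.20 and 0.34 in library 3. The difference between the genomes was not tested.

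Genes of the daily clock differed between these groups as well, and their part in the result was not tested. Dbp stood at 1.58, 1.40 and 1.15 TPM in floxed controls and at 22.9, 25.5 and 44.98 TPM in treated floxed libraries. In knockout controls 1, 2 and 5 it stood at 44.5, 33.4 and 1.04 TPM, and in treated knockout libraries at 17.3 to 19.3 TPM. Arntl, which runs in the opposite phase, stood at 7.54 to 10.5 TPM in floxed controls and at 0.80 to 1.68 TPM in treated floxed libraries. Of the 7 tested clock genes that run with Dbp, all lay above 0 in this comparison, with a median of 1.70, and Ciart was called (2.25, adjusted p = 0.0182, limma). Dbp, Arntl and Ciart were chosen after their values were seen. A difference in the time of sampling and the drug cannot be told apart here. For knockout among controls all 7 also lay above 0, with a median of 1.02, against 50.4% of all tested genes. None of the 7 was called there. Time of sampling and genotype cannot be told apart in that comparison either.

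The promoters of 77 of the 92 nuclear members were found in RefSeq (GRCm38.p6), as 250 bases before to 50 bases after each listed start. Some genes have several starts. NRF1 (nuclear respiratory factor 1) and GABP, known activators of respiratory chain genes, were searched on both strands, NRF1 as GCGCA and GCGC with any base between them and GABP as CCGGAAG. The NRF1 letters were in promoters of 21 of 77 members (27.3%) and of 5.19% of all 27025 genes. The GABP letters were in those of 21 of 77 (27.3%) and of 9.93%. A YY1 motif, AANATGGCG, was in 12 of 77 (15.6%) and in 2.76%. The ERR element, TCAAGGTCA, was in 2 (2.60%, Atp5g3 and Sdhd) and in 0.466%. Direct repeats of AGGTCA with any 1 or 4 bases between them are bound by RXR with PPARα and with LXR or thyroid hormone receptor. They were in none of the 77, and in 0.0481% (1 base) and 0.0148% (4 bases) of all genes. A gene was counted once if any of its promoters held a match, also where there were several matches. The 27025 are all genes with a listed promoter, expressed here or not, while the members had to reach a mean of 1 TPM. The 2 sets are thus unlike, and the shares were not tested. The absence of these exact letters in a window of 300 bases says nothing about binding. The promoters of Sdha (chr13:74350191-74350490, minus strand) and Cox6a1 (chr5:115348909-115349208, minus strand) are shown because they hold 3 and 2 NRF1 matches, given in capitals.
Sdha: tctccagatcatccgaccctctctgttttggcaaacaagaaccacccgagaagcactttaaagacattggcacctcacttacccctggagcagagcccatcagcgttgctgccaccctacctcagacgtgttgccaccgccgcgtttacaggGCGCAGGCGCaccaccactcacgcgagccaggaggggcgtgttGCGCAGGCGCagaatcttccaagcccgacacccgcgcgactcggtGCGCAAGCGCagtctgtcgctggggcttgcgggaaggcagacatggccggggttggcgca
Cox6a1: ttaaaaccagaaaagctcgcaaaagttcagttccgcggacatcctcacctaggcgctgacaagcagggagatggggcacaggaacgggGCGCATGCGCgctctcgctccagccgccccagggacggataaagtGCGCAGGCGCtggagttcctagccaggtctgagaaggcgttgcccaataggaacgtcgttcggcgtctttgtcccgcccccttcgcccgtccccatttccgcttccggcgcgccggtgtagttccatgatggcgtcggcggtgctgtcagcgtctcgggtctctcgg

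Without hepatic Rxra, bexarotene went with higher values of all 13 mitochondrially encoded genes and with little difference in the nuclear ones. The mitochondrial median was 0.58 and the nuclear median 0.07, with 64 of 92 above 0, while all tested genes had a median of 0.10 and 63.3% of them lay above 0. No member was called, against 0.417% of tested genes called higher and 0.0998% called lower. The treated knockout counts as 1 sample, whose spread was taken from the remaining groups. mt-Nd1 stood at 7385, 8416 and 7545 TPM in treated knockout libraries, all above the 4376 to 5025 TPM of knockout controls (0.71 ± 0.15, adjusted p = 0.119, limma). mt-Co1 stood at 25557, 27356 and 26011 TPM, again above all knockout controls (0.55 ± 0.18, adjusted p = 0.358). mt-Nd6, from the other strand, stood at 981, 1190 and 991 TPM against 424, 625 and 548 TPM and had the largest difference of the 13 (1.00 ± 0.38, adjusted p = 0.446). The libraries did not overlap for 11 of the 13, against 20% of tested genes higher without overlap. The 2 that overlapped were mt-Atp6 and mt-Co3, whose rows are uncertain because of their copies. Summed with its copy, mt-Atp6 stood at 15186 to 15967 TPM against 8357 to 11383 TPM in knockout controls. The sum for mt-Co3 stood at 16778 to 17707 TPM against 9869 to 12989 TPM, and neither sum overlapped. At an unadjusted p under 0.05 there were 7 mitochondrial and 0 nuclear members, and 9.17% of tested genes. Of the nuclear members 10 were higher and 1, Uqcrh, lower without overlap, where 20% and 8.5% of tested genes were so.

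Values of other RNAs moved with this comparison, and their part in the mitochondrial values was not tested. All 10 tested macrophage markers lay above 0 (median 1.39), with sums of 73.1 to 83.2 TPM in treated knockout libraries against 16.6 to 38.3 TPM in knockout controls. Erythroid genes summed to 647 to 743 TPM against 214 to 414 TPM, with 4 of 5 above 0. The mitochondrial ribosomal RNAs were also higher without overlap, with mt-Rnr2 at 763 to 857 TPM against 259 to 534 TPM (1.08 ± 0.51, adjusted p = 0.594, limma). The comparison shares the knockout controls with the comparison of genotypes above, so the opposite signs of the mitochondrial genes in both are not separate observations. With TPM scaled anew without the mitochondrially encoded genes, but with their chromosome 1 copies kept, the nuclear median was 0.138. After removal of the length and GC trend the mitochondrial median was 0.237, and the nuclear median turned to -0.0838 while the median of all tested genes went from 0.10 to -0.03. Quantile normalization moved the median of all tested genes likewise, to -0.03, and left the mitochondrial median at 0.576 and the nuclear median at 6.61e-04.

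**Figure D5:**
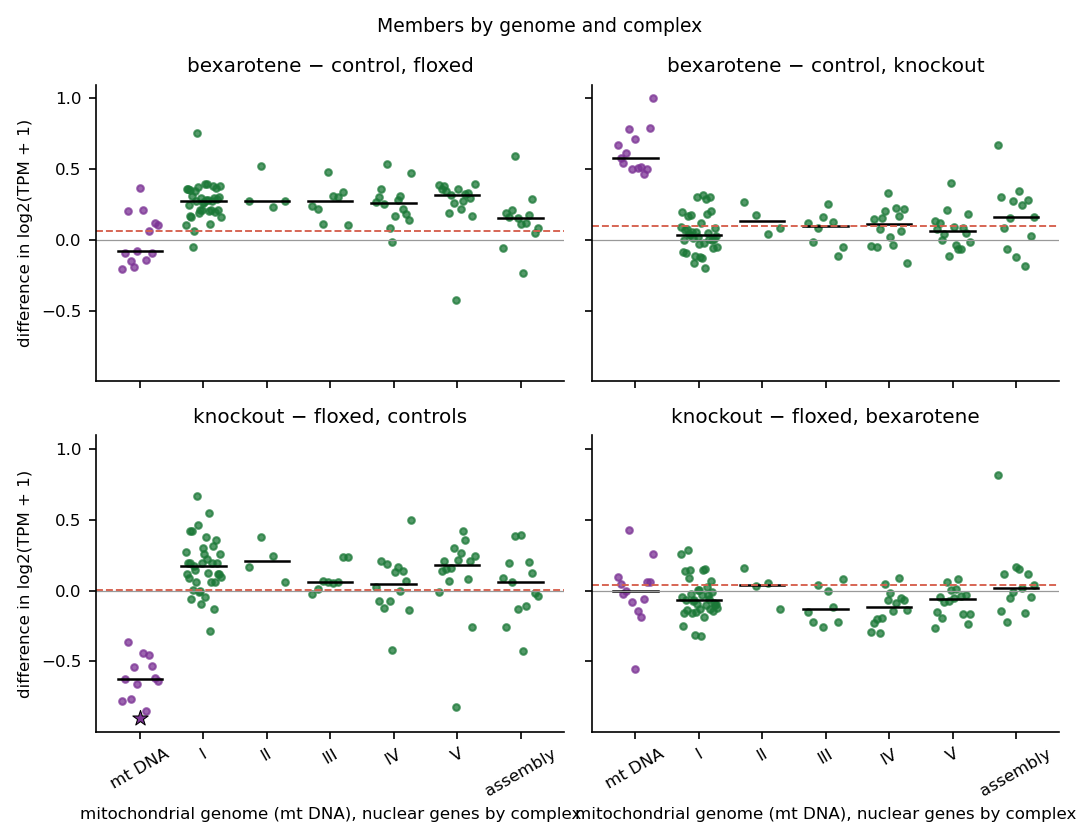
Difference in log2(TPM + 1) of each of the 105 members in 4 comparisons, by genome and, for nuclear genes, by complex; black lines are medians of the group of genes, the dashed line is the median of all tested genes and a star marks a called gene. The mitochondrial genes lie at 0.47 to 1.00 for bexarotene in knockout mice and at -0.90 to -0.36 for knockout among controls, where mt-Nd1 is the called gene.

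Between treated mice of both genotypes the medians of the members lay near 0. The median difference, knockout minus floxed, was -0.06 for the nuclear members, with 29 of 92 above 0, and -0.00 for the mitochondrial members, with 6 of 13 above 0, against 0.04 and 55.3% for all tested genes. With the length and GC trend removed the mitochondrial median was -0.320. No member was called, against 0.681% of tested genes called higher and 1.25% called lower. At an unadjusted p under 0.05 there were 3 members, and 11.8% of tested genes. mt-Nd1 was the member nearest to a call. Its values of 7385 to 8416 TPM in treated knockout libraries lay below the 11070 to 12026 TPM of treated floxed libraries (-0.56 ± 0.15, adjusted p = 0.143, limma). Of nuclear members 20 were lower and 6 higher without overlap, where 19.2% and 23.2% of tested genes were so. Ndufb6, a complex I subunit chosen after its values were seen, stood at 152, 138 and 149 TPM against 173 to 192 TPM (-0.32 ± 0.14, adjusted p = 0.400).

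The difference between the bexarotene effects in knockout and floxed mice was not called for any member, against 0.0998% of tested genes called in each direction. Its median was 0.66 for the mitochondrial genes, all 13 above 0, and -0.21 for the nuclear genes, 16 of 92 above 0, while all tested genes had a median of 0.02, with 52.1% above and 47.9% below 0. At an unadjusted p under 0.05 there were 2 mitochondrial and 2 nuclear members, and 9.34% of tested genes. The largest mitochondrial value was that of mt-Co3 (0.97 ± 1.06, adjusted p = 0.827, limma), whose libraries had a CV of 18.0% to 61.1% within groups, and with its copy added it was 0.59 ± 0.27 (adjusted p = 0.558). mt-Nd4l with its copy had 0.70 ± 0.26 (adjusted p = 0.463). The lowest nuclear value was that of Ndufab1 (-0.74 ± 0.29, adjusted p = 0.483). The effect in floxed mice and that in knockout mice are therefore not shown to differ for any single member. The mitochondrial median depended on knockout control 1 and on the length and GC trend, since it was 0.432 without that library and 0.106 with the trend removed.

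Subunits with paired or tissue forms were expressed mostly as the common form. Cox6a1 had a mean of 588 TPM and the heart and muscle form Cox6a2 0.0400 TPM. Cox6b1 had 496 TPM and the testis form Cox6b2 0.573 TPM. Cox6b2 is not a member and ranged from 0 to 1.69 TPM among libraries, near the floor. It reached 1 TPM only in the treated floxed libraries, so no difference between groups is read from it. Of subunit 7a, the ubiquitous Cox7a2 had 235 TPM, Cox7a2l, which helps to join complexes III and IV, had 90.6 TPM, and the muscle form Cox7a1 had 4.16 TPM. Cox8a, the common form of subunit 8, had 357 TPM. Cox4i2 and Cox8b were not analysed here. The same mature subunit c of the ATP synthase ring is encoded by Atp5g3 (741 TPM), Atp5g1 (414 TPM) and Atp5g2 (3.13 TPM). Atp5g2 ranged from 2.0 to 7.5 TPM among floxed controls and from 0.9 to 3.7 TPM among knockout controls, so its difference of -0.82 ± 0.44 (adjusted p = 0.402, limma) was within that spread. None of the members among these genes was called in any comparison.

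Complex II and the assembly factors gave no call either. Sdhc and Sdhd, the membrane anchors of complex II, had means of 153 and 143 TPM and differences of 0.23 ± 0.12 and 0.28 ± 0.12 with bexarotene in floxed mice (adjusted p = 0.412 and 0.330, limma). In knockout mice Sdha had 0.27 ± 0.14 (adjusted p = 0.652) and Sdhb 0.18 ± 0.20 (adjusted p = 0.888). Sdhaf4, which helps to insert the flavoprotein, was the highest assembly factor at 25.9 TPM, with 0.08 ± 0.15 in floxed mice (adjusted p = 0.844). Ndufaf1, which acts in early assembly of complex I, stood at 22.9 TPM, with 0.19 ± 0.14 (adjusted p = 0.591).

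Genes that surround the respiratory chain were counted in lists written from general knowledge. With bexarotene in floxed mice, where 1.84% of all tested genes were called higher and 0.281% lower, 1 of 30 further genes of complexes III and IV and their assembly was called, Sco2, which delivers copper to complex IV. It stood at 31.9, 33.4 and 38.3 TPM in floxed controls and at 72.7, 71.8 and 70.3 TPM in treated floxed libraries (1.00 ± 0.17, adjusted p = 0.0281, limma). In treated knockout libraries it stood at 61.9 to 67.9 TPM, against 22.5 to 33.7 TPM in knockout controls (1.23 ± 0.22, adjusted p = 0.0719). Of 14 genes for coenzyme Q and the mobile carriers, Coq10b, a coenzyme Q binding protein, was called, at 10.8 to 13.2 TPM in floxed controls and 26.5 to 32.6 TPM with the drug (1.30 ± 0.20, adjusted p = 0.0182). Of 8 other dehydrogenases that feed coenzyme Q, Gpd2, the mitochondrial glycerol-3-phosphate dehydrogenase, was called. It stood at 3.62 to 3.96 TPM in floxed controls and 10.5 to 11.9 TPM with the drug (1.32 ± 0.13, adjusted p = 0.00228), and it was called lower in treated knockout than in treated floxed mice, at 4.60 to 4.92 TPM (-1.07 ± 0.17, adjusted p = 0.0169). Each of these 3 genes was without overlap between floxed groups.

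In the comparison of genotypes among controls, where 1.92% of all tested genes were called lower, other genes on these lists were called. Prodh, the proline dehydrogenase of the same list, was lower in knockout controls, at 32.4 to 45.5 TPM against 87.2 to 90.5 TPM (-1.18 ± 0.16, adjusted p = 0.00586, limma), and in treated knockout mice (-1.26 ± 0.20, adjusted p = 0.0178). Suclg2, a subunit of succinyl-CoA synthetase and the only called gene of 13 in the tricarboxylic acid cycle, was lower in knockout controls (-0.64 ± 0.14, adjusted p = 0.0491). Pparg, 1 of 12 tested regulators, was lower there too, at 0.14 to 1.00 TPM against 2.91 to 3.30 TPM (-1.33 ± 0.29, adjusted p = 0.0468). With the drug in floxed mice the 13 tricarboxylic acid cycle genes all lay above 0 (median 0.41), against 58.6% of all tested genes with a median of 0.06, and none was called. Of 11 further complex I proteins, 6 tested carriers and complex V assembly factors, 15 tested genes of mitochondrial DNA replication and transcription, 19 of mitochondrial RNA processing, 13 proteases and chaperones and 78 mitochondrial ribosomal proteins, 0 were called in any of the 5 comparisons.

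The lists nearest to mitochondrial gene expression gave small differences. Mitochondrial ribosomal proteins had medians of 0.15 with bexarotene in floxed mice (64 of 78 above 0), 0.05 in knockout mice and 0.02 for knockout among controls. Genes of mitochondrial DNA replication and transcription had -0.20 for knockout among controls, 2 of 15 above 0, and 0.34 for bexarotene in knockout mice, 13 of 15 above 0. Of all tested genes 50.4% lay above 0 in the first of these comparisons, with a median of 0.00, and 63.3% in the second, with a median of 0.10. Tfam, which packs and transcribes mitochondrial DNA, varied from 11.4 to 23.1 TPM among floxed controls and from 9.62 to 22.2 TPM among knockout controls (-0.10 ± 0.35, adjusted p = 0.930, limma). Esrra, the receptor ERRα that activates respiratory chain genes, stood at 11.1 to 13.9 TPM in floxed controls and at 17.9 to 19.3 TPM in treated floxed libraries (0.58 ± 0.25, adjusted p = 0.329). Ppargc1a, a coactivator of mitochondrial biogenesis, was below 1 TPM in all 12 libraries and was not tested. The 83 cytosolic ribosomal proteins, which are as abundant as the nuclear members, had a median of -0.01 in floxed mice with the drug, and Rpl22l1 among them was called lower in knockout controls.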

How the data were processed

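RNA of hepatocytes from 4 groups was sequenced as 12 libraries. Per the labels' protocols, TRIzol was used for extraction and DNase I to remove DNA, and libraries were made with an Illumina stranded mRNA kit. Per the submitters' processing notes, fastp, HISAT2 and StringTie were used. Their versions, the genome build and the use of strand are not given in the sources used here. TPM per gene identifier came as 1 table that the authors deposited. It holds no counts, so no interval from depth can be given. The labels name no separate animals, so the p-values reflect how far these samples vary, and that variation may be technical.

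Libraries of a group whose log2 difference beyond counting noise had a spread under 0.1 were averaged, judged in 20 classes of level above a floor of 10 TPM. A gene was tested if 3 or more libraries reached 1 TPM (11018 genes), and all 105 members passed. Models of log2(TPM + 1) over the 4 groups were fitted with limma 3.58.1 in R 4.3.3 (eBayes with a trend, 5 residual and 3.22 prior degrees of freedom). Adjusted p-values are two-sided and follow Benjamini and Hochberg across every tested gene, with calls made under 0.05. The pseudocount of 1 makes differences of low genes appear smaller than they are. Medians over members were described without a test. The fit was tested on simulated data.

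The members, the lists and the rule for named genes were chosen with earlier results of these data known. The rule took all mitochondrial genes, the 2 highest nuclear genes of each complex, paired isoforms, called members and up to 2 called genes of each other list. Ndufab1, Ndufb6, the clock genes and the copies were named after their values were seen. Copies were found by matching GENCODE M21 transcripts of GRCm38 at 95% identity or more over at least 100 bases. Columns number the libraries otherwise than the titles do. Alternatives changed the pseudocount, the filter, the scaling, the samples in the fit and the averaging of libraries.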

Additional observations from a re-analysis of the deposited data

Results flagged for a closer look

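The rows flagged here hold signal in genes outside the members that resemble members in sequence. The 6 copies of mitochondrial genes on chromosome 1 had means over 12 libraries of 22702 TPM for Gm28661, 16943 TPM for Gm28437, 13128 TPM for Gm28438, 12625 TPM for Gm10925, 4813 TPM for Gm10222 and 4150 TPM for Gm29216. Together they took 5.07% to 5.54% of the total in knockout controls and 7.44% to 9.60% in the other libraries. Gm28437 (-0.81 ± 0.16, adjusted p = 0.0311, limma) and Gm28438 (-0.75 ± 0.14, adjusted p = 0.0230) were called lower in knockout controls than in floxed controls. The copies of the same genes on chromosomes 2 and 13 did not exceed 0.92 TPM. Ndufb1-ps, left out for its symbol, had a mean of 37.6 TPM and stood at 31.8 to 44.4 TPM in the 12 libraries. RefSeq names it Ndufb1 and lists it as protein coding.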

How the results depend on the processing

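Treating the 12 libraries as separate samples called 17 members with bexarotene in floxed mice, 9 in knockout mice, 13 for knockout among controls, 2 under the drug and 2 in the difference between the effects. Fitting only the 2 groups compared called 2 in floxed mice (Cox6b1 and Sdhb) and 0 among controls, where no filter called 0, quantile normalization 2, removal of the length and GC trend 2 and the sums with copies 3. With the replicate block in floxed mice 16 were called. Whether the column numbers pair the samples is not known. Same-numbered libraries correlated at 0.0361, 0.00529 and 0.143, and the highest value was that of floxed control 3 with treated library 1 (0.161). Floxed controls 1 and 3 are near-identical, so these correlations cannot decide it. Without single samples, where a lone remaining sample is taken to vary like the rest, 0 to 1 members were called in floxed mice and 0 to 2 among controls. The mitochondrial median then ran from -0.176 to 0.121 in floxed mice and from 0.432 to 0.724 in the difference. With the length and GC trend removed it was 0.177 in floxed and 0.237 in knockout mice, -0.424 among controls, -0.320 under the drug and 0.106 in the difference, and the nuclear median in knockout mice was -0.0838. Quantile normalization put the nuclear median in floxed mice at 0.117. Over all genes, 234, 57, 414, 213 and 22 were called in the 5 comparisons, and 1062, 1105, 1302, 1589 and 651 with 12 samples. With no filter the numbers were 140, 875, 231, 1041 and 689, with the block 1242 in floxed mice, and with only 2 groups 614, 6, 158 and 263. Without the 20 most abundant other genes, which include copies, the mitochondrial share was 19.5%, 18.8%, 13.1% and 18.0% in floxed controls, treated floxed, knockout controls and treated knockout, and the nuclear share 2.78%, 3.15%, 3.02% and 2.93%. Under all 18 alternatives the mitochondrial median among controls stayed below 0, and under all 19 the nuclear median with the drug in floxed mice stayed above 0. The cause of each change was not tested. Of the values of single named genes 3077 stayed on their side of the threshold, nearly all of them uncalled, 35 became called and 5 lost their call, all 5 of mt-Nd1 among controls. Its adjusted p was 0.062 with no filter, 0.136 without the length and GC trend and 0.0562 with only 2 groups (limma).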
